A study of Canis lupus familiaris with 7 samples.

Results

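Cartilage matrix and SOX genes were followed through an RNAseq comparison of canine osteosarcoma (OSA), a malignant bone tumor of dogs, with non-tumor bone. The group holds 10 genes, chosen by symbol: the transcription factors *SOX9*, *SOX5* and *SOX6*, the matrix genes *ACAN*, *HAPLN1*, *COMP*, *MATN1*, *MATN3* and *CHAD*, and the joint lubricant gene *PRG4*. All 10 were found, each once, among the 24580 genes of the deposited expression table. The samples were 4 pieces of bone that looked free of malignancy (non-tumor, N1, N3, N8 and N9) and 3 osteosarcomas (OSA tumor, T1, T3 and T10), with no treatment, genotype, breed or age given for any of them. The non-tumor pieces were cut from bone next to a tumor and are described as matched tissue, so they were not bone of healthy dogs. Where N1 and T1, or N3 and T3, share a number, the sources used here do not state that it marks 1 dog, nor that each sample came from its own dog, and p-values measure the spread between these samples alone.

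Cartilage is built by chondrocytes, whose identity depends on SOX9 acting with SOX5 and SOX6 on enhancers of cartilage matrix genes. The matrix is a mesh of collagen II with collagens IX and XI, filled by aggrecan (*ACAN*), a large chondroitin sulfate proteoglycan that link protein (*HAPLN1*) locks onto hyaluronan. COMP, the matrilins and chondroadherin (*CHAD*) connect the collagen mesh to other matrix proteins and to cells, and lubricin (*PRG4*) coats the surface of joints and tendons. Growing long bones pass through a cartilage stage, and some osteosarcomas lay down cartilage-like matrix beside bone matrix.

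Values were FPKM, fragments scaled to transcript length and to the number of mapped fragments, and were compared as log2(FPKM + 1), a scale on which the change of a low gene is understated. A gene was tested with limma where its mean over the 7 samples reached 1 FPKM, and it was called higher or lower where the log2 fold change reached 1 in size and the unadjusted p lay under 0.05. A value of exactly 0 in such a table can be a failed estimate and is given as listed at 0. The 13507 tested genes had a smallest adjusted p of 0.693, so 0 genes had an adjusted p under 0.05 by limma, while 927 had an unadjusted p under 0.05. The two-sided exact permutation test over the 35 ways to divide 7 samples into 4 and 3 cannot give a p below 0.0571. The library labelled N1 was far more like T1 than like any other sample (Spearman correlation over the tested genes 0.924, against at most 0.796 for the other pairs), and the values of the tested genes among the 10 are therefore also given without it. Its marker levels also lay on the side of T1. Over 9 osteoblast genes the summed FPKM was 1004 in N1 and 2264 in T1, against 21.3 to 356 in the other non-tumor samples and 203 to 506 in the other tumors. Over 18 skeletal muscle genes the sum was 109 (N1), 1660 (N3), 116300 (N8) and 88564 (N9), against 23.4 to 35.7 in OSA tumor. In such bulk samples, fewer cells of a type and less RNA per cell cannot be told apart.

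Of the 10 genes, 7 were tested, and *SOX9*, *ACAN* and *HAPLN1* were higher in OSA tumor by limma. None of the 7 was lower, and *SOX6*, *COMP*, *CHAD* and *PRG4* passed in neither direction, while *SOX5*, *MATN1* and *MATN3* were too low to be tested. Among all tested genes 6.86% were called, 3.28% as higher and 3.58% as lower. The median log2 fold change was 0.70 over the 7 tested genes, of which 4 were positive and 3 negative, and -0.02 over all tested genes. In 3 of the 10 genes, *SOX9*, *HAPLN1* and *MATN3*, every tumor sample lay above every non-tumor sample. The order held for 2 of the 7 tested genes, *MATN3* being untested, and for 3.04% of all tested genes. The reverse order was seen in 0 of the 10, a count not read further, because its share over all tested genes was not computed.

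**Figure D1:**
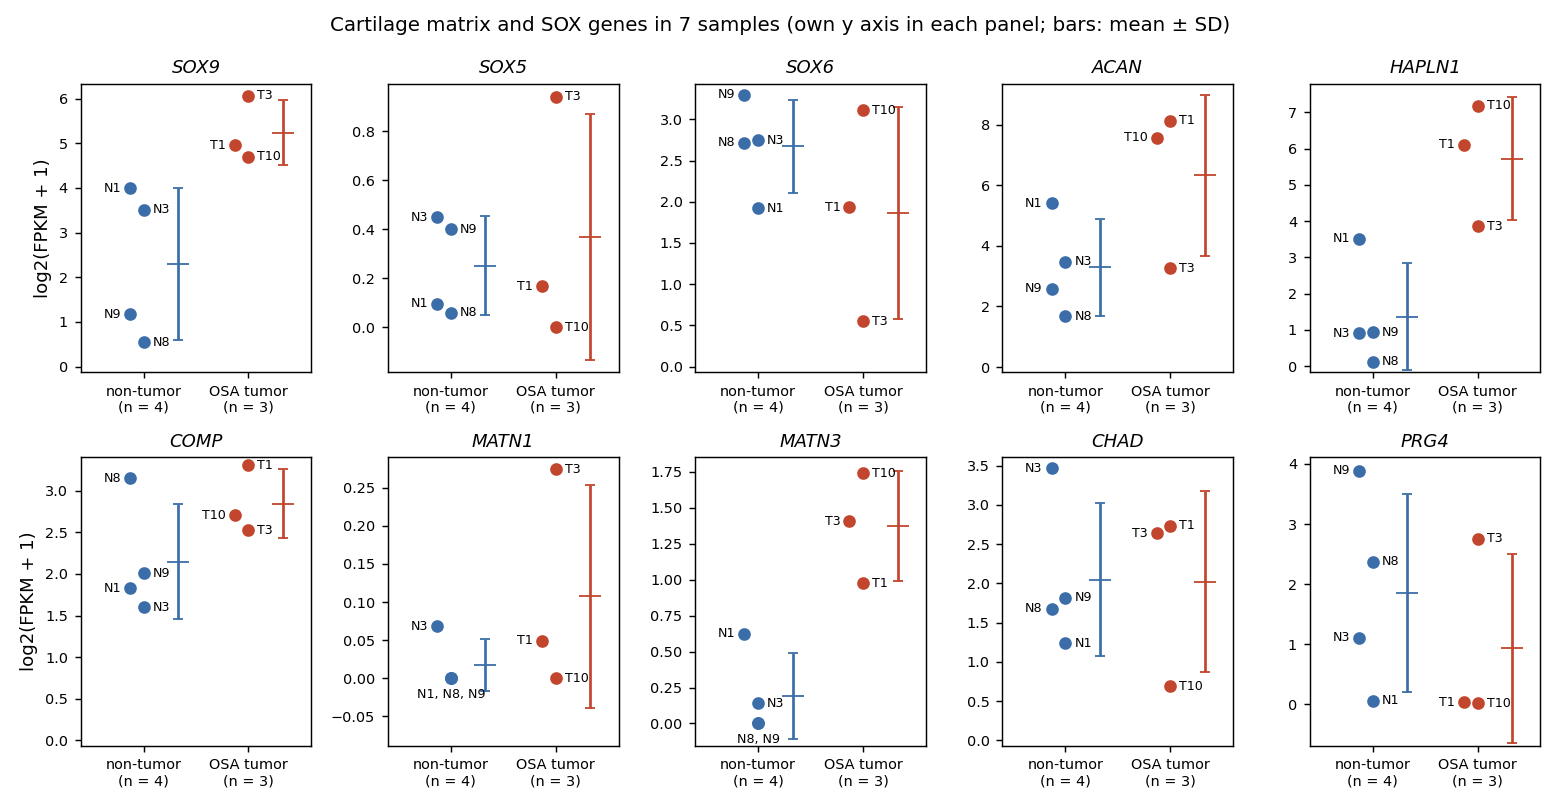
Level of each of the 10 genes in log2(FPKM + 1), with its own y axis in each panel. Points are samples, blue for the 4 non-tumor and red for the 3 OSA tumor samples, and bars give mean ± SD of each group. The groups were apart in *SOX9*, *HAPLN1* and *MATN3*, and in *ACAN* T1 and T10 lay above all other samples while T3 lay among the non-tumor samples.

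*SOX9* (ENSCAFG00000004374), the factor that sets up the chondrocyte program, lies on chromosome 9 from 8275049 to 8280390 of CanFam3.1. It was at 30.1 FPKM (T1), 65.6 (T3) and 24.9 (T10), against 14.9 (N1), 10.4 (N3), 0.454 (N8) and 1.25 (N9). The tumors were thus all above the non-tumor samples, which themselves fell into a higher pair, N1 and N3, and a much lower pair, N8 and N9. The lowest tumor was 1.67 times the highest non-tumor sample, and the non-tumor samples spanned 32.9-fold among themselves. The non-tumor mean was 6.76 ± 7.07 FPKM (SD, n = 4) and the OSA tumor mean 40.2 ± 22.2 FPKM (SD, n = 3). The log2 fold change was 2.93 (SE 0.87 and unadjusted p = 0.00803 by limma, exact two-sided permutation p = 0.0571). *SOX9* was called in each of the 7 fits with 1 sample left out, from 2.34 without N8 to 3.49 without N1 (unadjusted p = 0.00243 by limma), and with N1 and T1 both left out the value was 3.63. The pair of low samples, N8 and N9, had by far the highest sums of muscle genes, and the part of this in the *SOX9* difference was not tested. *SOX9* was 2.01 times higher in T1 than in N1 and 6.30 times higher in T3 than in N3.

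*SOX5* (ENSCAFG00000011571, chromosome 27 from 23453783 to 23851041) and *SOX6* (ENSCAFG00000008607, chromosome 21 from 38737247 to 39151793) code for the SOX proteins that work beside SOX9 on chondrocyte genes, and *SOX6* also serves in muscle fibers and red cell precursors. *SOX5* was under 1 FPKM in every sample, at 0.124 FPKM (T1), 0.918 (T3) and listed at 0 (T10), against 0.0697 (N1), 0.364 (N3), 0.0426 (N8) and 0.319 (N9). T3 held 88.1% of the tumor sum, and the groups overlapped. Low values rise in steps of whole fragments, from which the fragments behind a given FPKM were read relative to N1 (0.543 in N8 to 1.43 in T10). If the smallest *SOX5* value stood for 1 fragment, the 7 samples held about 3, 21, 1 and 9 fragments in N1, N3, N8 and N9, and 5, 49 and 0 in T1, T3 and T10.

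*SOX6* was at 2.82 FPKM (T1), 0.462 (T3) and 7.65 (T10), against 2.79 (N1), 5.72 (N3), 5.58 (N8) and 8.82 (N9). N9 was the highest sample and T3 the lowest, and the tumors spanned 16.5-fold. The log2 fold change was -0.81 (SE 0.66 and unadjusted p = 0.254 by limma, exact two-sided permutation p = 0.400) and ran from -1.43 without T10 to -0.15 without T3; without N1 it was -1.06, not called. T3, which had the most *SOX9* and *SOX5*, thus had the least *SOX6*, at 0.0809 times its level in N3.

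Because *SOX5* lay below 1 FPKM in every sample, its ratio to *SOX9* on log2(FPKM + 1) mainly follows *SOX9* and is not read as a result. On the FPKM as listed, the log2 ratio of *SOX9* to *SOX5* was 7.74 in N1 and 6.16 in T3, so the groups overlapped. The ratio of *SOX9* to *RUNX2*, the gene of the factor that commits cells to bone, was higher in every tumor (difference 1.34 on log2(FPKM + 1); exact permutation p = 0.0571, and 0.152 adjusted over the 8 ratios looked at). On the FPKM as listed, the log2 ratio was -2.11 (T1), 0.53 (T3) and -2.22 (T10), against -3.25 (N1), -2.53 (N3), -3.77 (N8) and -3.18 (N9), with a difference of 1.92 and the same p in the exact permutation test. T3 alone had more *SOX9* than *RUNX2*, and T1 and T10 lay just above the non-tumor range. *RUNX2* itself was at 130 FPKM (T1), 45.5 (T3) and 116 (T10) and at 142 in N1, and was not called (1.59, unadjusted p = 0.144 by limma), but was without N1 (2.34, unadjusted p = 0.0223 by limma).

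Among 16 symbols of the other SOX family, 12 were found and 5 tested (*SOX4*, *SOX12*, *SOX13*, *SOX17* and *SOX18*), and 0 were called in either direction; their median log2 fold change was 0.31. In the fits without T1, without T10, and without both N1 and T1, 1 of these SOX genes was called. *SOX4*, a SOXC gene of progenitor cells, was at 12.6 FPKM in T1 but at 1.34 (T3) and 1.39 (T10) in the other tumors, against 5.89 in N1 and 0.364 to 0.743 in the other non-tumor samples (0.95, unadjusted p = 0.281 by limma). *SOX8*, a close relative of *SOX9* whose interval holds 2 listed genes, stayed between 0.137 and 2.001 FPKM, and *SOX10*, the neural crest member of the same subgroup, between 0.0213 and 0.422 FPKM. *SOX9* was therefore the SOX gene with the highest FPKM in all 3 tumors among the 15 SOX genes looked at.

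*ACAN* (ENSCAFG00000011534, chromosome 3 from 51995115 to 52032255), the core protein of the proteoglycan that gives cartilage its swelling pressure, was at 280 FPKM (T1), 8.59 (T3) and 189 (T10). In non-tumor samples it was at 41.6 (N1), 10.1 (N3), 2.22 (N8) and 4.99 (N9). T1 and T10 lay far above all other samples, whereas T3 was below N1 and N3, so the groups overlapped. Within its own sample *ACAN* stood at the 99.2nd percentile of all listed genes in T1 and the 98.5th in T10, and at the 73.9th in T3. The non-tumor mean was 14.7 ± 18.2 FPKM (SD, n = 4) and the OSA tumor mean 159 ± 138 FPKM (SD, n = 3). The log2 fold change of 3.03 (SE 1.23 and unadjusted p = 0.0348 by limma, exact two-sided permutation p = 0.171) rested on which samples were in the fit. It was called without N1 (3.74, unadjusted p = 0.0133 by limma) and without T3 (4.57), and not without N3 (3.1), N8 (2.50), N9 (2.80), T1 (2.13) or T10 (2.41). With N1 and T1 both left out it was 2.84 (unadjusted p = 0.0710 by limma), and with no filter on low values its p was 0.0543. A fit with a fixed block by sample number, over the samples numbered 1 and 3, gave 1.26, not called. *ACAN* in T1 was 6.74 times its level in N1, and in T3 0.851 times its level in N3.

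*HAPLN1* (ENSCAFG00000029131, chromosome 3 from 23999219 to 24078497), which codes for the link protein of the aggrecan aggregate, was at 67.9 FPKM (T1), 13.5 (T3) and 144 (T10). It was at 10.4 (N1), 0.884 (N3), 0.0843 (N8) and 0.905 (N9). All tumors were above all non-tumor samples, with T3 only 1.29 times above N1, and N1 stood far from the other non-tumor samples. The log2 fold change was 4.35 (SE 0.96 and unadjusted p = 0.00133 by limma, exact two-sided permutation p = 0.0571). It was called in all 7 fits without 1 sample, from 3.61 without T10 to 5.28 without T3, and was 5.06 without N1 (unadjusted p = 0.000241 by limma) and 4.87 without N1 and T1. *HAPLN1* was 6.51 times higher in T1 than in N1 and 15.3 times higher in T3 than in N3.

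The RNA of the link protein gene and that of the aggrecan gene were not in a fixed proportion. On the FPKM as listed, the log2 ratio of *HAPLN1* to *ACAN* was -2.04 (T1), 0.65 (T3) and -0.39 (T10), against -4.72 to -1.99 in the non-tumor samples. T1 lay within the non-tumor range and T3 and T10 above it. The difference of the means was 1.31 on log2(FPKM + 1) and 2.58 as listed, with exact permutation p of 0.229 and 0.114. T3, with little *ACAN*, thus had more *HAPLN1* than *ACAN* by FPKM.

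**Figure D2:**
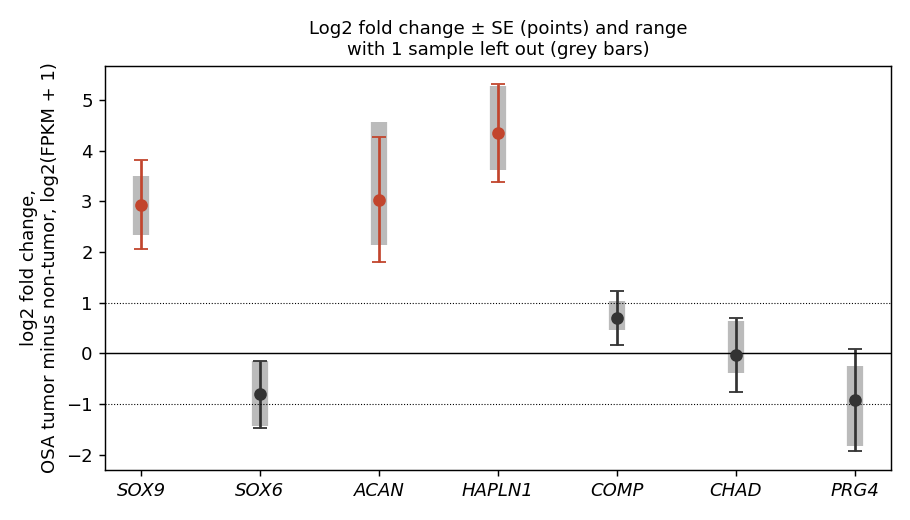
Log2 fold change (OSA tumor minus non-tumor, log2(FPKM + 1)) of the 7 tested genes. Points with bars give the value ± SE by limma, red where called, and grey bars the range over the 7 fits that left out 1 sample; dotted lines mark 1 and -1. *SOX9* and *HAPLN1* stayed above 2 in every fit, *ACAN* ran from 2.13 to 4.57, and the range of *CHAD* crossed 0.

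*HAPLN3*, a link protein gene of other tissues that neighbours *ACAN* on chromosome 3, was at 26.7 FPKM (T1), 5.97 (T3) and 40.7 (T10), against 10.5 in N1 and 1.13 to 2.57 in the other non-tumor samples. It was higher in OSA tumor (2.36, unadjusted p = 0.0139 by limma) although T3 lay below N1, also without N1 (2.88), and not without T1 (2.13) or T10 (1.83). It was 1 of the 2 genes tested of the 6 further lecticans and link proteins. The other was *VCAN*, whose product versican is the aggrecan relative of loose connective tissue. It was at 74.4 to 96.3 FPKM in the tumors and 94.8 (N1), 82.4 (N3), 15.9 (N8) and 10.3 (N9) (1.25, unadjusted p = 0.148 by limma, not called). Without N1 it was called (1.73, unadjusted p = 0.0487 by limma). T1 and T10 held more *ACAN* than *VCAN* (log2 ratios on FPKM + 1 of 1.90 and 1.25), while the ratio was -3.34 in T3 and -2.91 to -0.91 in the non-tumor samples (exact permutation p = 0.343). *NCAN*, *BCAN* and *HAPLN4*, members of this family known from the brain, stayed at or below 0.0850 FPKM, and *HAPLN2* was listed at 0 throughout.

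*COMP* (ENSCAFG00000014616, chromosome 20 from 44306720 to 44314610), a pentamer that binds collagens in cartilage and tendon, was at 8.91 FPKM (T1), 4.75 (T3) and 5.52 (T10), against 2.56 (N1), 2.03 (N3), 7.89 (N8) and 3.02 (N9). The tumors varied little, 1.88-fold, and lay above N1, N3 and N9, with N8 inside their range. The log2 fold change of 0.70 (SE 0.53 and unadjusted p = 0.220 by limma, exact two-sided permutation p = 0.171) was not called, and ran from 0.47 without T1 to 1.03 without N8, with 0.59 without N1. *COMP* did not follow *ACAN*: their log2 ratio on FPKM + 1 was -4.83 in T1 and -4.87 in T10, but -0.74 in T3, and -3.58 (N1), -1.87 (N3), 1.47 (N8) and -0.58 (N9) (exact permutation p = 0.171).

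*MATN3* (ENSCAFG00000003825, chromosome 17 from 15038182 to 15054451) and *MATN1* (ENSCAFG00000011269, chromosome 2 from 70225456 to 70234420) code for matrilins, adaptor proteins of the cartilage matrix. *MATN3* was low throughout but ordered by group, at 0.964 FPKM (T1), 1.65 (T3) and 2.34 (T10), against 0.542 in N1, 0.102 in N3 and listed at 0 in N8 and N9. The lowest tumor was 1.78 times the highest non-tumor sample, N1 (exact two-sided permutation p = 0.0571). If the value of N3 stood for 1 fragment, N1 held about 4 fragments, and T1, T3 and T10 about 7, 15 and 25. The gap between T1 and N1 thus rested on few fragments. It fell under the filter; with no filter its log2 fold change was 1.18 (SE 0.25 and unadjusted p = 0.00171 by limma), again with no adjusted p under 0.05.

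*MATN1* was listed at 0 in N1, N8, N9 and T10 and was at 0.0485 FPKM in N3, 0.0345 in T1 and 0.209 in T3. In fragments relative to the smallest value these were about 2 in N3, 1 in T1 and 8 in T3, so a difference was not detectable at this depth. Of 6 other matrilin and thrombospondin symbols, 5 were found and tested. *MATN2*, a matrilin of many tissues (1.58), and *MATN4* (2.58, in an interval shared with *RBPJL*) were higher and *THBS4* (-3.69) was lower in OSA tumor by limma, with unadjusted p of 0.0470, 0.0377 and 0.0131. *MATN4* was at 123 FPKM in T3 but at 23.9 in T1 and 5.97 in T10, and *MATN2* was also highest in T3, at 55.8 FPKM. The groups overlapped in both genes. In *MATN4* T10 lay below N1 (7.99) and N3 (11.5), and in *MATN2* N3 (15.9) lay above T1 (14.3) and T10 (13.9). *THBS4*, the thrombospondin of muscle and tendon, was at 105 FPKM in N8 and 127 in N9, the samples with the most muscle RNA. It was at 46.6 in N3 and 4.74 in N1, and at 0.285 to 16.2 in the tumors, so the groups overlapped. These calls were lost for *MATN2* without N1 (1.74), N8 (1.30), N9 (1.33) or T3 (0.94), for *MATN4* without N8 (2.46), N9 (1.92), T1 (2.67) or T3 (1.51), and for *THBS4* without T1 (-2.99) or T10 (-3.22). With no filter on low values, *MATN2* and *MATN4* were not called either (unadjusted p = 0.0582 and 0.0586 by limma), and *MATN2* was also lost with the FPKM rescaled to the same sum (1.71), without limma's trend (1.58) and, with *MATN4*, with N1 and T1 both left out (2.05 and 2.98).

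*CHAD* (ENSCAFG00000017064), a leucine-rich protein that binds collagen and integrins, is listed on chromosome 9 with the interval 26377861 to 26409331, shared with *ACSF2*, so its reads may be hard to assign. It was at 5.67 FPKM (T1), 5.22 (T3) and 0.611 (T10), against 1.36 (N1), 10.1 (N3), 2.20 (N8) and 2.52 (N9). N3 was the highest sample and T10 the lowest, and the groups overlapped (log2 fold change -0.03, SE 0.73 and unadjusted p = 0.970 by limma). Leaving out T10 gave 0.64, leaving out T1 gave -0.39 and leaving out N1 gave -0.30, none of them called.

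*PRG4* (ENSCAFG00000013691, chromosome 7 from 19359856 to 19376903), the lubricin gene of joint surface and synovium, was at 0.0230 FPKM (T1), 5.74 (T3) and 0.0149 (T10). In non-tumor samples it was at 0.0432 (N1), 1.16 (N3), 4.19 (N8) and 13.8 (N9). Samples were thus either at the floor (N1, T1 and T10) or clearly above it, with T3 holding 99.3% of the tumor sum. If the value of T10 stood for 1 fragment, T1 held about 1 and N1 about 2 fragments, against 330 in T3 and 420 in N9. The log2 fold change was -0.92 (SE 1.01 and unadjusted p = 0.382 by limma, exact two-sided permutation p = 0.457), and ran from -1.83 without T3 to -0.25 without N9; without N1 it was -1.52, not called.

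**Figure D3:**
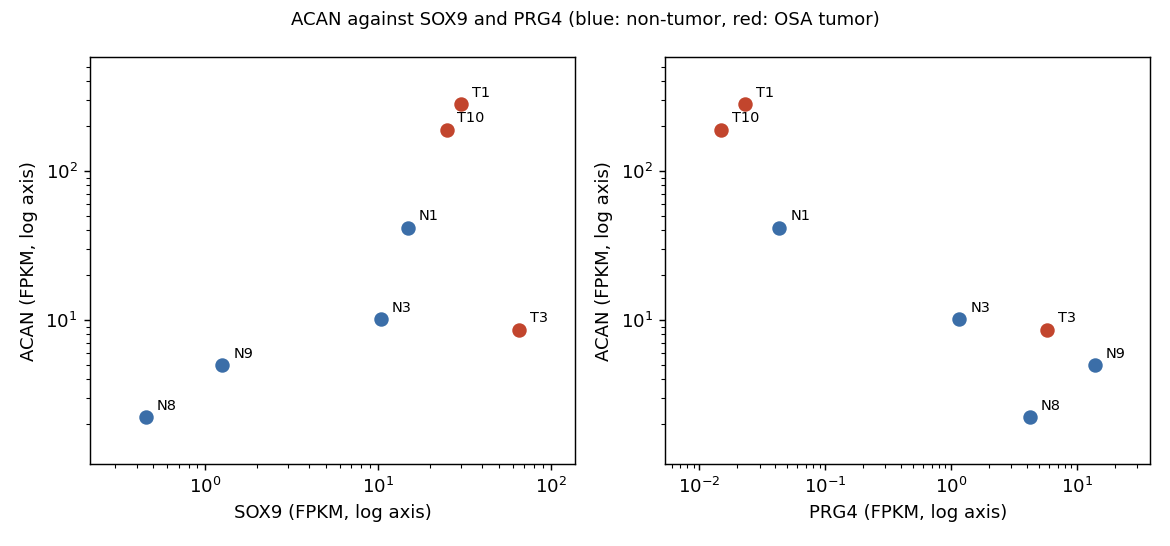
*ACAN* against *SOX9* (left) and against *PRG4* (right), in FPKM on log axes; each point is a sample, blue for non-tumor and red for OSA tumor. The 3 samples with the most *ACAN*, T1, T10 and N1, were those with the least *PRG4*, and T3 had the highest *SOX9*, 65.6 FPKM, with an *ACAN* level of 8.59 FPKM.

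Across the 7 samples the 10 genes formed different mixtures. Their FPKM summed to 397 (T1), 107 (T3) and 374 (T10), against 74.3 (N1), 40.9 (N3), 22.7 (N8) and 35.6 (N9). Every tumor was above every non-tumor sample in this sum. *ACAN* made up 70.6% of it in T1, 50.5% in T10 and 56.0% in N1, whereas *SOX9* made up 61.5% in T3. *HAPLN1* was second in all 3 tumors, at 17.1% (T1), 12.7% (T3) and 38.5% (T10). In the samples with the most muscle RNA the leading gene was another one, *COMP* in N8 (34.8%) and *PRG4* in N9 (38.7%), and *SOX6* came second in both.

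The 8 cartilage collagen genes looked at showed the same unevenness among tumors. All 8 had a positive log2 fold change, with a median of 1.99, but 0 were called either way by limma. *COL2A1*, the main collagen of cartilage, was at 286 FPKM (T1), 39.5 (T3) and 0.547 (T10), against 22.9 (N1), 3.89 (N3), listed at 0 (N8) and 0.0477 (N9) (2.98, unadjusted p = 0.111 by limma). T10, with 189 FPKM of *ACAN*, thus had almost no *COL2A1*. On the FPKM as listed, the log2 ratio of *ACAN* to *COL2A1* was -0.03 (T1), -2.20 (T3) and 8.43 (T10), against 0.86 in N1, 1.37 in N3 and 6.71 in N9, with N8 left out because *COL2A1* was listed at 0 there. The ratio thus varied widely in both groups, and the difference of the group means on log2(FPKM + 1), where the low *COL2A1* values are set by the added 1, was 0.06 (exact permutation p = 0.971).

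*COL9A1*, a chain of the collagen on the surface of collagen II fibrils, was at 20.9 FPKM in T1 and 21.5 in T10 but 0.248 in T3 (2.27, unadjusted p = 0.0510 by limma). *COL11A1*, a chain of the collagen that seeds these fibrils and is also made in bone, was at 193 FPKM in T1 and 169 in T10 but 7.53 in T3, and at 148 in N1 against 0.343 to 3.63 in the other non-tumor samples. *COL11A2* was at 180 FPKM in T1, 3.41 in T3, 36.6 in T10 and 217 in N1. N1 was the highest of all samples in *COL11A2*, and the calls turned on the samples in the fit and on the processing. Without N1, where 1997 of all 13507 tested genes were called, so were 5 of the 8 collagen genes. Among them were *COL2A1* (3.93), *COL9A1* (2.59), *COL11A1* (4.47) and *COL11A2* (3.39). With N1 and T1 both left out 2 were called, beside 1894 of all tested genes. With N1 kept, *COL2A1* was called without T10 (5.02) and with a fixed (3.32) or random (3.01) block by sample number. *COL9A1* was called without T3 (3.65) and with sample weights (2.48) or the rescaled sum (2.24). *COL9A1* was also called with quantile normalization (2.34) or a filter of 1 FPKM in 3 samples (2.27). *COL11A1* was called without T3 (4.53), with sample weights (4.05) or with the rescaled sum (3.08). *COL10A1*, the collagen of hypertrophic chondrocytes in an interval shared with *NT5DC1*, was at 32.5 FPKM in T1 and at or below 0.191 in the other 6 samples.

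**Figure D4:**
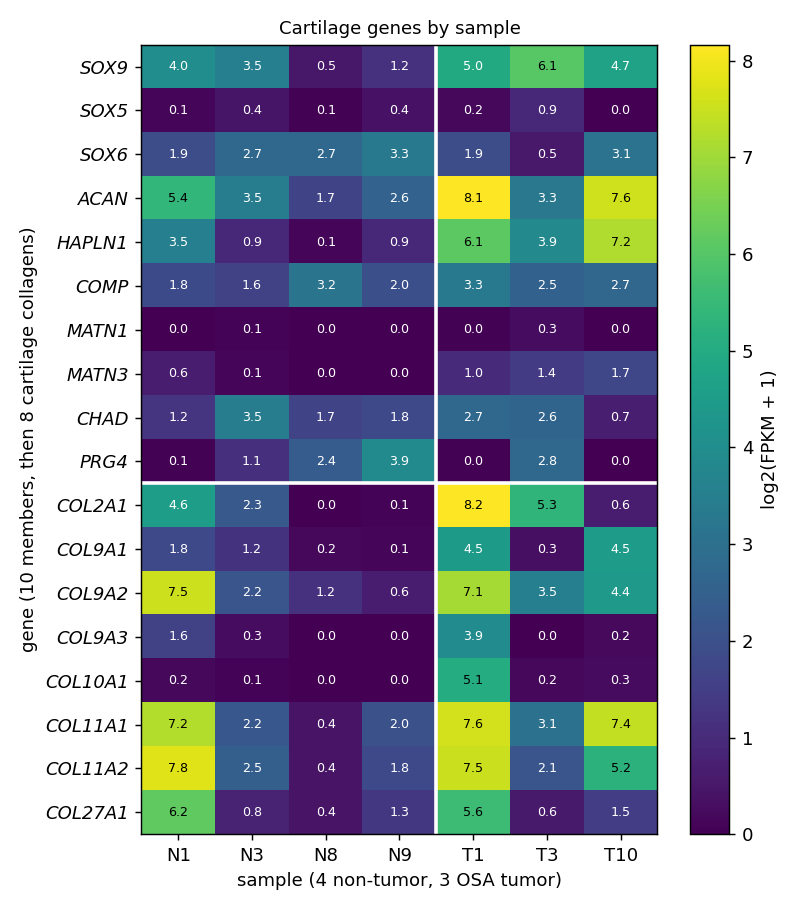
The 10 genes (top) and the 8 cartilage collagen genes (bottom) in each of the 7 samples; color and printed value give log2(FPKM + 1), and white lines separate the groups. T1 was high in *ACAN*, *HAPLN1* and all 8 collagen genes, T10 in *ACAN*, *HAPLN1* and *COL11A1* but not *COL2A1* (0.547 FPKM), and T3 in *SOX9* and *COL2A1*; N1 was high in *COL9A2*, *COL11A1* and *COL11A2*.

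Genes that build the sugar chains of aggrecan were looked at next. Of 22 symbols of chondroitin sulfate synthesis, 19 were found and 18 tested; 3 were higher and 0 lower in OSA tumor by limma, beside 3.28% and 3.58% of all tested genes, with a median log2 fold change of 0.42. *CHSY1*, a chondroitin polymerase in an interval of 3 listed genes, was at 38.2 to 70.7 FPKM in the tumors and 7.87 to 25.5 in the non-tumor samples (1.70, unadjusted p = 0.0111). *UGDH*, which makes the UDP-glucuronate used for these chains, was at 44.2 FPKM (T1), 111 (T3) and 72.4 (T10), against 45.3 in N1 and 8.45 to 21.4 in the others (1.94, unadjusted p = 0.0129 by limma). *PAPSS2*, which makes the sulfate donor, was at 15.4 FPKM in T3 and 16.1 in T10 but at 2.15 in T1, below the 3.45 of N3 (1.91, unadjusted p = 0.0219 by limma). Of the tumors, the one with the most *ACAN* thus had the least *PAPSS2*. With 1 sample left out, *CHSY1* was called each time, *UGDH* was lost without T3 (1.62), and *PAPSS2* without N9 (1.74), T3 (1.52) or T10 (1.49).

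Of 9 hyaluronan symbols, 8 were found and 7 tested, and *KIAA1199*, coding for a hyaluronan-degrading protein, was called higher (1.69, unadjusted p = 0.0292 by limma). It was at 6.47 FPKM in T1 and 5.98 in T10, 0.940 in T3 and 1.76 in N1. Of the 9 genes of aggrecan and COMP degradation, 8 were tested and 0 were called, with a median of 0.75. This list holds the inhibitor gene *TIMP3* (1.15) beside the enzymes. In the fits without N1, without T3 or with sample weights, 1 gene of the list was called. Of 14 symbols of growth plate signalling, 11 genes were tested and *NKX3-2*, which codes for a repressor that keeps chondrocytes immature, was higher (1.72, unadjusted p = 0.0424 by limma), at 12.8 FPKM (T1), 11.1 (T3) and 1.45 (T10). T10 was below N1 and N3 in *NKX3-2*. Leaving out N8, N9 or T1 ended both calls (1.53, 1.55 and 1.35 for *KIAA1199*, 1.40, 1.62 and 1.27 for *NKX3-2*), as did T10 for the first (1.40) and T3 for the second (1.37). The processing alone also ended them, for *KIAA1199* with the FPKM rescaled to the same sum (unadjusted p = 0.0541 by limma), and for *NKX3-2* with that rescaling (0.0626), with pseudocounts of 0.1 (0.0502) and 0.01 (0.0549), and with no filter (0.0600). Of the other cartilage proteins, 7 of 14 were tested, and of the tendon and joint surface genes 6 of 8; 0 were called in either list, and the medians were 0.87 and 0.29. These counts turned on the samples too. Without N1, where 1997 of all tested genes were called, 2 were called in hyaluronan, 3 in growth plate signalling, 2 among the other cartilage proteins and 1 among the tendon and joint surface genes. With N1 and T1 both left out, the counts were 4, 0, 0 and 1, and without T1 or with sample weights 2 hyaluronan genes were called. Of the other cartilage proteins, 2 were called without N3, and 1 without N9, T3 or T10, with sample weights, with the rescaled sum or with a pseudocount of 0.1. Among the tendon and joint surface genes, 1 was called with sample weights or the rescaled sum.

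**Figure D5:**
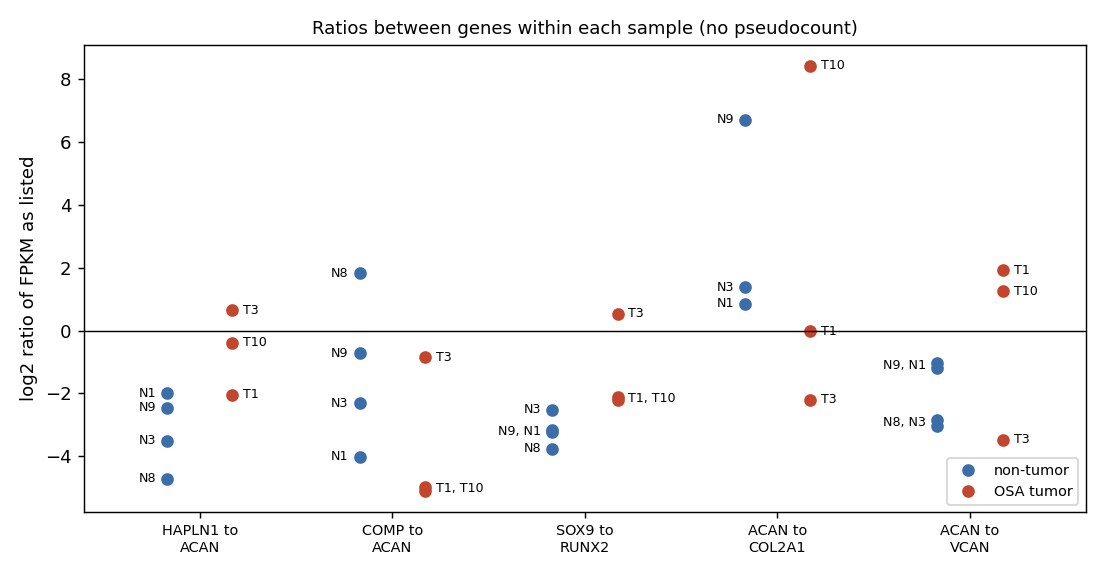
Log2 ratios between genes within each sample, computed on the FPKM as listed; points are samples, blue for non-tumor and red for OSA tumor, and N8 has no point for *ACAN* to *COL2A1*, where *COL2A1* was listed at 0. Groups did not overlap in *SOX9* to *RUNX2*, and *ACAN* to *COL2A1* spread from -2.20 to 8.43 in the tumors.

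Muscle, erythroid and adipocyte markers moved with the groups. Of the skeletal muscle genes 15 of 18 were lower in OSA tumor by limma, of the erythroid genes 8 of 11, and of the adipocyte genes 4 of 4 tested, while of the osteoblast genes 2 of 9 were higher. Of 6 osteoclast genes 0 were called, and of 4 synovial fibroblast genes tested, *PRG4* among them, *CD55* was higher. The adipocyte sum spanned 29.3 to 281 FPKM in non-tumor samples and 9.89 to 44.6 in OSA tumor, and the erythroid sum 7.54 to 4609 and 3.97 to 78.0. In N1, where *SOX9*, *ACAN*, *HAPLN1* and *MATN3* were the highest of the non-tumor samples, muscle, erythroid and adipocyte sums were the lowest of that group. The part of this tissue make-up in the differences of *SOX9*, *ACAN* and *HAPLN1* was not tested.

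The genes most like *SOX9*, *ACAN* and *HAPLN1* in pattern were found by Pearson correlation of log2(FPKM + 1) over the 7 samples among 11850 genes, as a description of samples that also differ by group. They were *EYA2* (0.995), *CTHRC1* (0.992) and *INTU* (0.991) for *SOX9*. For *ACAN* they included *DDR2* (0.985), which codes for a collagen receptor, and *KIAA1199* (0.984), and for *HAPLN1* they were *FAM89A* (0.992), *SLC35F1* (0.988) and *HAPLN3* (0.983). *CTHRC1*, a gene of a secreted collagen repeat protein, was at 405 FPKM in T3, 106 in T10 and 92.5 in T1, against 53.0 in N1 and N3 and 1.72 to 4.81 in N8 and N9. *DDR2* was at 23.8 FPKM in T1 and 27.8 in T10 but 4.62 in T3, the split seen in *ACAN*.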

How the data were processed

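RNA of the 7 samples was made into stranded TruSeq libraries and sequenced in pairs on an Illumina HiSeq platform. Per the labels and the study's methods, the authors used Trim Galore for trimming and Tophat2 for alignment to CanFam3.1, and computed the deposited FPKM per gene and sample with Cufflinks/Cuffdiff; exact versions, strand setting and scaling between libraries are not given in the sources used here. The authors' own comparison columns (fold changes, test statistics, p-values) were not used; gene intervals were read from that table, with 1 added to each start. No counts were analysed, so depth is known only relative to N1, from ratios of values under 0.3 FPKM, and may include the authors' scaling.

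FPKM were taken as deposited with a pseudocount of 1, genes averaging 1 FPKM or more were kept (13507 of 24580), and groups were compared with limma 3.58.1 in R 4.3.3, with a mean-variance trend, without pairing, and Benjamini-Hochberg adjustment over all tested genes. The fit was tested on simulated data. Single genes and 8 ratios were also compared by exact permutation (Python 3.11.15, numpy 2.4.6, scipy 1.17.1, pandas 2.3.3), and figures drawn with matplotlib 3.10.9. The 10 genes and all lists were chosen with earlier results of these data known. Besides the 10 genes, the text names by rule 11 cartilage, SOX and bone genes (*SOX11* was not analysed here), up to 5 called genes of each list with the smallest p, and the 3 genes most like each called gene, of which some are not reported here; *COL9A2*, *NCAN*, *BCAN*, *HAPLN2* and *HAPLN4* and the genes under other observations were named after their values were seen. Alternatives were pseudocounts of 0.1 and 0.01, other filters, 3 scalings, no trend, sample weights, a replicate block and each sample left out; leaving out both samples numbered 1, and ratios without a pseudocount, were added after seeing the data.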

Additional observations from a re-analysis of the deposited data

Results flagged for a closer look

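In 37 genes and ratios looked at for a non-tumor sample that stood apart (Dixon's test at 95% for 4 samples), 12 did. The chance rate of this test, about 1 of 20, holds for independent, normally distributed values. Genes were looked at in FPKM, which are skewed to high values, so the 12 cannot be set against that rate. N1 was the sample in 9 of them. It was high in *HAPLN1* (10.4 FPKM), *HAPLN3* (10.5 FPKM), *COL2A1* (22.9 FPKM), *COL11A1* (148 FPKM), *COL11A2* (217 FPKM), *SOX4* (5.89 FPKM) and *SOX8* (2.001 FPKM) and in the log2 ratio of *MATN3* to *MATN1* (0.62), and low in the log2 ratio of *SOX9* to *RUNX2* (-3.17), both on FPKM + 1. *MATN1* is near 0, so the first ratio mainly follows *MATN3*. On the FPKM as listed N8 (-3.77), not N1 (-3.25), was lowest in the second. The other flags were *COMP* in N8 (7.89 FPKM), and *CHAD* (10.1 FPKM) and *MATN1* (0.0485 FPKM) in N3, the last against 3 samples listed at 0.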

How the results depend on the processing

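*SOX9* and *HAPLN1* were called higher in all 19 alternatives and *ACAN* in 11 of 19, while *SOX6*, *COMP*, *CHAD* and *PRG4* were called in 0 of 19. No tested value of the 10 genes changed from called in one direction to called in the other. The 926 genes called became 1857 with sample weights, 1894 with N1 and T1 both left out, and 319 (without N8) to 1997 (without N1) with 1 sample left out, 603 without T3 and 424 without T10; the cause was not tested. With the FPKM rescaled to the same sum, 271 genes were higher and 493 lower instead of 443 and 483, and the median change over all tested genes moved, on the log2 scale, from -0.02 to 0.12. With a fixed replicate block by sample number over the samples numbered 1 and 3, 241 genes were called. *SOX9* fell to 1.75 and *HAPLN1* to 2.77, both still called, and *ACAN* (1.26) was not; *COL2A1* was called (3.32), and the calls became 0 in chondroitin sulfate synthesis (from 3), hyaluronan (from 1) and the further link proteins (from 1). With a random replicate block over all samples *COL2A1* was called too (3.01), *SOX9* was at 2.51, *ACAN* at 2.44 and *HAPLN1* at 3.82, and these 3 were called. Either block gave 1 call in aggrecan and COMP degradation and 1 among the other cartilage proteins (both from 0), and the random block gave 2 in hyaluronan. The study describes the tissue as matched, but no source used here states that the numbers pair the samples. Deviations from the group means correlated at 0.42 between N1 and T1 and at 0.21 between N3 and T3. The other pairs of a tumor and a non-tumor sample ran from -0.27 (N1 and T3) to 0.135 (N9 and T10). Only 2 pairs share a number, and whether each came from 1 dog was not tested. Depth limits *MATN1*, *MATN3* and the low values of *SOX5* and *PRG4*.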

Other observations

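T3 stood out in further cartilage and hyaluronan genes, named here after their values were seen. *SCRG1*, a gene linked to mesenchymal progenitor cells, was at 175 FPKM in T3, against 7.08 to 10.7 in the other tumors and 0 to 18.5 in non-tumor samples. *FRZB*, a secreted Wnt antagonist of joint cartilage, was at 99.9 FPKM in T3 and 4.08 to 17.7 in the other 6 samples, and *CD44*, the hyaluronan receptor, at 271 FPKM in T3 and 15.8 to 104 in the others. *SOX2*, a stem cell factor, was at 2.70 FPKM in T3, 0.626 in T1 and listed at 0 in T10, against 0.146 in N1, 0.723 in N3 and listed at 0 in N8 and N9.

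In N8 and N9, the samples with the highest sums of muscle genes (116300 and 88564 FPKM), 2 other genes were high, again named after their values were seen. *CILP*, a cartilage matrix gene, was at 12.5 and 23.3 FPKM in N8 and N9 and at or below 0.469 in the other 5 samples, and *CLIC5* at 26.0 and 64.4 FPKM against at most 2.07. Neither was called by limma (log2 fold changes -1.88 and -2.51, unadjusted p = 0.114 and 0.0716). Of the other genes of the tendon and joint surface list, *KERA* was also highest in N8 (8.03 FPKM) and N9 (3.88 FPKM), with at most 3.43 FPKM in a tumor, while 4 had their highest value in a tumor, *TNMD* (15.4 FPKM), *TPPP3* (45.4 FPKM) and *CREB5* (7.97 FPKM) in T10 and *FMOD* (28.9 FPKM) in T1.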
